A study of Mus musculus with 10 samples.

Results

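V(D)J recombination builds the antigen receptor genes of lymphocytes. The Rag1-Rag2 endonuclease cuts beside V, D and J gene segments and leaves hairpins on the coding ends. The hairpins are opened by the nuclease Artemis (Dclre1c) together with the DNA-dependent protein kinase catalytic subunit (Prkdc), nucleotides are added to the ends by terminal deoxynucleotidyl transferase (Dntt), gaps are filled by DNA polymerases mu (Polm) and lambda (Poll), and the ligase complex of Lig4, Xrcc4 and Xlf (Nhej1) seals them. Pro-B cells rearrange the immunoglobulin heavy-chain locus, and Pax5, the transcription factor that commits lymphoid progenitors to the B cell lineage, is expressed in them. The paired domain of Pax5 binds DNA through an N-terminal and a C-terminal part, and the R31Q exchange lies in the N-terminal part.

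Expression of the 10 genes named above was followed in RNA-seq libraries of mouse pro-B cells, and the Pax5 ChIP-seq peaks in and near them were mapped. The genes were chosen by name from this pathway, and all 10 were among the 25579 genes measured and among the 13436 genes tested, which had 1 TPM or more in 1 or more libraries. All mice had a C57BL/6 background, and the ages of those used for sequencing were not given in the sources used here. RNA came from cells sorted from bone marrow, with 2 libraries each for Pax5+/+, Pax5+/- (1 null allele), Pax5R31Q/- (1 R31Q allele made by genome editing over 1 null allele) and Pax5-/- cells. The latter came from Pax5 fl/fl mice with Vav-Cre, which deletes floxed alleles throughout blood cells, and their labels call them progenitor cells where the labels of the other 6 libraries say pro-B cells. ChIP-seq used an antibody to the paired domain and cells grown for a short time on OP9 stroma with IL-7, with 1 library each of wild-type Pax5 and of Pax5R31Q/-. The wild-type library is labelled Rag2(-/-), so these cells carry a targeted deletion in 1 of the genes described here. The Rag2 genotype of the Pax5R31Q/- cells is unclear, since their genotype label is Pax5(R31Q/-) and their description writes Rag2(R31Q/-).

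By reads recovered from the TPM values, the depth on genes ranged from 21625407 to 34488454 reads per library, and a Pax5-/- library was the shallowest. Pax5 itself had 418 and 444 TPM in Pax5+/+, 272 and 287 TPM in Pax5+/-, 306 and 293 TPM in Pax5R31Q/- and 1242 and 1409 TPM in the libraries labelled Pax5-/-. The tables give no values by exon, so these Pax5 levels do not check the deletion. The gate used to sort the Pax5-/- cells was not given in the sources used here. Vpreb1, which encodes a part of the surrogate light chain of pro-B cells, had 1107 and 1042 TPM in them, against 2386 to 3479 TPM in the other 6 libraries, and Ebf1, a transcription factor of early B cells, had 143 and 166 TPM against 387 to 502 TPM. Cd79a, Cd79b and Igll1 were also lower in Pax5-/- than in Pax5+/+ cells, Cd93 was higher (714 and 981 against 278 and 272 TPM), and Il7r, Kit and Ptprc did not pass by limma, while limma-voom on recovered reads called Ptprc (means of 134 and 101 TPM). All 6 markers of uncommitted lymphoid progenitors were higher in Pax5-/- than in Pax5+/+ cells, with a summed level of 3657 to 3919 TPM in Pax5-/-, 359.8 to 426.1 TPM in Pax5+/+, 612 to 746 TPM in Pax5+/- and 651 to 681 TPM in Pax5R31Q/- libraries. All 10 markers of the G2/M phase were lower in Pax5-/- than in Pax5+/+ cells, with sums of 487 to 490 TPM in Pax5-/-, 1286 to 2105 TPM in Pax5+/+, 2006 to 2355 TPM in Pax5+/- and 1923 to 2096 TPM in Pax5R31Q/- libraries. Of 7 myeloid markers tested, 0 passed by limma or limma-voom and 0 had an unadjusted p under 0.05, but their sum differed between the Pax5-/- libraries (2064 TPM in replicate 1 and 313 TPM in replicate 2, against 397 to 614 TPM in Pax5+/+, 661 to 1529 TPM in Pax5+/- and 944 to 992 TPM in Pax5R31Q/-). Of 5 T and NK cell markers tested, Nkg7 (56.2 and 24.7 TPM in Pax5-/- against 6.45 and 6.34 TPM in Pax5+/+) and Cd28 (1.76 and 5.07 against 0.333 and 0.112 TPM) were higher and Klrb1c was lower in Pax5-/- cells, while the defining T cell genes Cd3d, Cd3e and Cd3g were under 1 TPM in all 8 libraries. The part of these differences in the results on Pax5-/- cells below was not tested, and in sorted populations fewer cells of a type and less RNA per cell cannot be told apart. Labels do not say whether the 2 libraries of a genotype came from separate mice, so p-values measure the spread between libraries, which may be technical.

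In Pax5+/+ pro-B cells the 10 genes spanned a wide range of levels, given as TPM (a measure of transcripts per gene length and library total). Dntt held rank 36 among all genes tested, with 2277 and 2318 TPM. Rag1 had 687 and 436 TPM, Rag2 128 and 132 TPM, and Lig4 63.2 and 52.4 TPM. Polm and Poll were nearly level with each other, at 34.8 and 31.1 TPM for Polm and 29.9 and 32.7 TPM for Poll. The other end-joining genes were lower, with means of 16.6 TPM for Nhej1, 12.6 TPM for Xrcc4, 9.18 TPM for Dclre1c and 9.05 TPM for Prkdc. The recombinase genes and Dntt were thus more abundant than the genes of general end joining. The library values of Polm and Poll overlapped, as did those of Dclre1c and Prkdc, so neither pair has an order.

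Pax5R31Q/- cells differ from Pax5+/+ cells both by the R31Q allele and by 1 null allele. From Pax5+/- cells, which share the null allele, they differ by the R31Q allele. Besides the substitution, that allele carries silent mutations introduced during the editing. Among the 10 genes, Polm alone passed the test in Pax5R31Q/- against Pax5+/+ cells. It had 34.8 and 31.1 TPM in Pax5+/+ (1417 and 1129 reads) and 1.87 and 2.01 TPM in Pax5R31Q/- cells (76 and 80 reads). The groups were far apart, and the mean in Pax5R31Q/- was 5.88% of that in Pax5+/+. The log2 fold change of TPM + 1 was -3.53 ± 0.21 (SE, adjusted p = 0.000313, limma on log2(TPM + 1) over all genes, n = 2 and 2). That scale adds 1 to each value and understates the change of a gene as low as Polm in Pax5R31Q/- cells. With 2 libraries against 2, the smallest two-sided p of an exact permutation test is 0.333, and the p-values given here draw on a variance that limma pools over genes. Of all genes tested, 2.55% were lower and 1.62% were higher in Pax5R31Q/- at an adjusted p under 0.05. Under stricter criteria, which also asked for a change over 3-fold and a mean TPM over 5 in a genotype, 0.558% were lower, and Polm was among them.

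**Figure D1:**
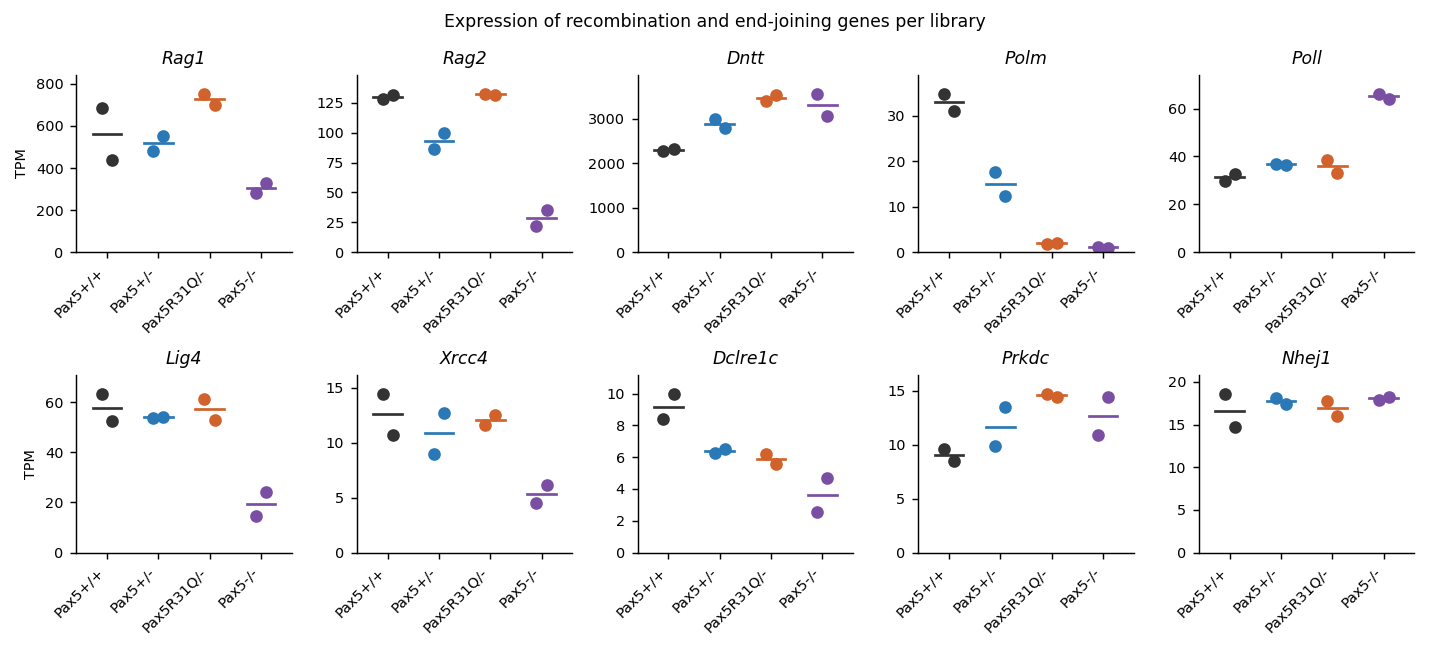
TPM of the 10 genes in each of the 8 RNA-seq libraries, with a panel per gene, a vertical axis that starts at 0, points for libraries and horizontal lines for the mean of 2 libraries. Polm fell from 34.8 and 31.1 TPM in Pax5+/+ to 1.87 and 2.01 TPM in Pax5R31Q/- cells, while Rag1, Rag2, Lig4 and Xrcc4 were lowest in Pax5-/- cells.

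Polm occupies positions 5827860 to 5838832 of chromosome 11 (GRCm38, minus strand). In Pax5+/- cells it had 17.7 and 12.3 TPM, between the levels of Pax5+/+ and Pax5R31Q/-, with no overlap with either. The difference from Pax5+/+ was -1.10 ± 0.21 on the log2 scale and did not pass (adjusted p = 0.174), although limma-voom on the recovered reads put it at an adjusted p of 0.0491. Between Pax5R31Q/- and Pax5+/-, which both have 1 null allele, the log2 fold change was -2.43 ± 0.21 (adjusted p = 0.00577, limma). This call was lost without Pax5+/- replicate 1 (adjusted p = 0.0771), without Pax5R31Q/- replicate 1 (0.123) and without Pax5R31Q/- replicate 2 (0.158), with log2 fold changes of -2.18, -2.39 and -2.46. In Pax5-/- cells Polm had 1.26 and 0.919 TPM (37 and 38 reads). The difference from Pax5+/+ was -4.02 ± 0.21 (adjusted p = 1.6e-05), and Pax5R31Q/- stood 0.50 ± 0.21 above Pax5-/- (adjusted p = 0.0966). The order of Polm levels was therefore Pax5+/+, Pax5+/-, Pax5R31Q/- and Pax5-/-, and neither the first nor the last pair of neighbours in it differed by the test.

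Poll, which like Polm fills gaps during end joining, did not follow that order. It had 29.9 and 32.7 TPM in Pax5+/+, 36.8 and 36.5 TPM in Pax5+/-, 38.5 and 33.2 TPM in Pax5R31Q/-, and 66.3 and 64.1 TPM in Pax5-/- cells. The Pax5-/- libraries were clear of all others, and the log2 fold change from Pax5+/+ was 1.04 ± 0.12 (adjusted p = 0.000587, limma). Against Pax5+/+, the Pax5R31Q/- difference was 0.19 with a 95% interval from -0.10 to 0.47 (adjusted p = 0.436). Pax5R31Q/- was 0.85 ± 0.12 lower than Pax5-/- cells (log2 fold change -0.85, adjusted p = 0.00196). As a ratio within each library, Poll to Polm was 0.858 and 1.05 in Pax5+/+, 2.08 and 2.96 in Pax5+/-, 20.6 and 16.5 in Pax5R31Q/-, and 52.5 and 69.7 in Pax5-/- cells. A ratio within a library shows unequal change and not which gene changed.

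Dntt, the polymerase that adds nucleotides without a template and the closest relative of Polm, was high in all 8 libraries. It had 2277 and 2318 TPM in Pax5+/+, 3006 and 2782 TPM in Pax5+/-, 3394 and 3525 TPM in Pax5R31Q/-, and 3566 and 3072 TPM in Pax5-/- cells. The 2 Pax5+/+ libraries were the lowest of all. In Pax5-/- cells the log2 fold change was 0.53 ± 0.13 and passed (adjusted p = 0.0171, limma), but not without Pax5+/+ replicate 1 (adjusted p = 0.0541), without Pax5-/- replicate 1 (0.0573) or after quantile normalization (0.381). In Pax5R31Q/- it was 0.59 ± 0.13, just short of the threshold (adjusted p = 0.0513), and a pseudocount of 0.1 in place of 1 gave 0.0456. In Pax5+/- it was 0.33 ± 0.13 (adjusted p = 0.744). The ratio of Dntt to Polm was 65.4 and 74.5 in Pax5+/+ and 1820 and 1750 in Pax5R31Q/- libraries.

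**Figure D2:**
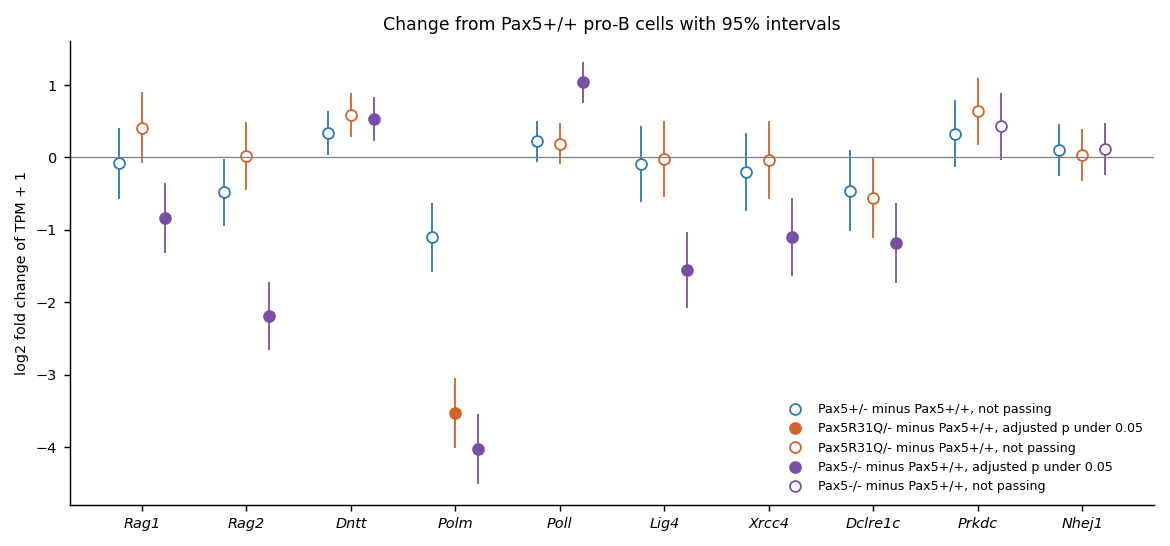
Log2 fold change of TPM + 1 (vertical axis) of the 10 genes in Pax5+/-, Pax5R31Q/- and Pax5-/- against Pax5+/+ pro-B cells, with 95% intervals from limma and filled points for an adjusted p under 0.05. In Pax5R31Q/- only Polm is filled at -3.53, in Pax5-/- 8 genes are filled, and in Pax5+/- none is.

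The recombinase genes Rag1 and Rag2 lie side by side on chromosome 2 and are transcribed towards each other, Rag1 between 101638252 and 101649532 (minus strand) and Rag2 between 101624712 and 101632528 (plus strand). Rag2 had 128 and 132 TPM in Pax5+/+ and 133 and 131 TPM in Pax5R31Q/- cells, and the difference was 0.02 on the log2 scale with a 95% interval from -0.44 to 0.49 (adjusted p = 0.968, limma). It had 86.3 and 99.9 TPM in Pax5+/- cells, all below the Pax5+/+ values, by -0.48 ± 0.20 on the log2 scale (adjusted p = 0.799). In Pax5-/- cells it had 21.95 and 35.0 TPM, and the log2 fold change was -2.19 ± 0.20 (adjusted p = 0.000177). Pax5R31Q/- cells were 2.21 ± 0.20 above Pax5-/- cells (adjusted p = 0.000239). Rag2 shares 4320 bp with B230118H07Rik on the other strand, and the strand setting of the counting was not given in the sources used here. That gene had mean levels of only 3.75 to 6.33 TPM over the 4 genotypes.

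Rag1, the subunit with the catalytic site, had 687 and 436 TPM in Pax5+/+, so its Pax5+/+ libraries differed by more than those of any other genotype. It had 481 and 554 TPM in Pax5+/-, 754 and 700 TPM in Pax5R31Q/-, and 283 and 331 TPM in Pax5-/- cells. The Pax5R31Q/- libraries were the highest and the Pax5-/- libraries the lowest. The log2 fold change against Pax5+/+ was 0.41 ± 0.21 in Pax5R31Q/- (adjusted p = 0.339, limma) and -0.84 ± 0.21 in Pax5-/- (adjusted p = 0.0179). The latter call was lost without Pax5+/+ replicate 1 (log2 fold change -0.51, adjusted p = 0.0546) and without Pax5-/- replicate 1 (-0.72, adjusted p = 0.101). Pax5R31Q/- was 1.24 ± 0.21 above Pax5-/- (adjusted p = 0.00384). Rag1 and Rag2 did not change to the same extent in Pax5-/- cells: the ratio of Rag1 to Rag2 was 5.34 and 3.31 in Pax5+/+, 5.58 and 5.55 in Pax5+/-, 5.68 and 5.33 in Pax5R31Q/-, and 12.9 and 9.45 in Pax5-/- libraries.

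Lig4, the DNA ligase of this pathway, had 63.2 and 52.4 TPM in Pax5+/+, 53.5 and 54.2 TPM in Pax5+/-, 61.2 and 52.9 TPM in Pax5R31Q/- and 14.6 and 24.3 TPM in Pax5-/- cells. Only the Pax5-/- libraries stood apart, at -1.56 ± 0.23 against Pax5+/+ on the log2 scale (adjusted p = 0.00155, limma). In Pax5R31Q/- the change was -0.02 with a 95% interval from -0.54 to 0.51. Its scaffold partner Xrcc4 had 14.4 and 10.7 TPM in Pax5+/+, 8.95 and 12.7 TPM in Pax5+/-, 11.6 and 12.5 TPM in Pax5R31Q/-, and 4.51 and 6.13 TPM in Pax5-/- cells. The log2 fold change of Xrcc4 in Pax5-/- was -1.10 ± 0.23 (adjusted p = 0.0084) and did not pass without Pax5+/+ replicate 1 (-0.90, adjusted p = 0.0575). Nhej1, the accessory factor of the same complex, was level throughout. It ranged from 14.7 to 18.6 TPM over the 8 libraries, and its log2 fold change in Pax5-/- was 0.12 with a 95% interval from -0.24 to 0.48. Within the ligase complex, Lig4 and Xrcc4 thus fell in Pax5-/- cells and Nhej1 did not pass.

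Of the pair that opens the hairpins, Dclre1c, the nuclease, had 8.37 and 9.98 TPM in Pax5+/+, 6.26 and 6.53 TPM in Pax5+/-, 6.22 and 5.60 TPM in Pax5R31Q/-, and 2.55 and 4.67 TPM in Pax5-/- cells. The Pax5+/+ libraries were the highest and the Pax5-/- libraries the lowest, with no overlap. By limma only the fall in Pax5-/- against Pax5+/+ passed (log2 fold change -1.18 ± 0.24, adjusted p = 0.00715), and it missed the threshold without Pax5+/+ replicate 2 (-1.06, adjusted p = 0.0521). In Pax5R31Q/- it was -0.56 ± 0.24 (adjusted p = 0.264). Pax5R31Q/- stood 0.62 ± 0.24 above Pax5-/- (adjusted p = 0.0766, limma), a difference that passed by limma-voom on recovered reads (adjusted p = 0.0431). Dclre1c shares 18397 bp with Suv39h2 on the other strand, whose means of 2.96 to 6.15 TPM were of similar size, so the levels of Dclre1c are uncertain. Prkdc, the kinase that activates it, had 9.59 and 8.50 TPM in Pax5+/+, 9.92 and 13.5 TPM in Pax5+/-, 14.7 and 14.5 TPM in Pax5R31Q/-, and 10.9 and 14.4 TPM in Pax5-/- cells. The Pax5+/+ libraries were the lowest, but no comparison passed. The largest difference was 0.64 ± 0.20 in Pax5R31Q/- (adjusted p = 0.138), which limma-voom on recovered reads put at an adjusted p of 0.0388. In Pax5-/- it was 0.43 ± 0.20 (adjusted p = 0.129), which passed under median-ratio scaling (adjusted p = 0.0403), quantile normalization (0.0316) and limma-voom (0.0179).

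Counted together, 6 of the 10 genes were lower in Pax5-/- than in Pax5+/+ cells (Dclre1c, Lig4, Polm, Rag1, Rag2 and Xrcc4) and 2 were higher (Dntt and Poll), beside 19.7% of all genes tested that were lower and 16.2% that were higher. Their median log2 fold change was -0.97, and that of all genes -0.11. Under the stricter criteria, Polm and Rag2 were lower, as were 3.45% of all genes. Of the 10 genes, 1 passed in Pax5R31Q/- against Pax5+/+, and the medians were 0.03 for the 10 genes and 0.04 for all genes. In Pax5+/- against Pax5+/+, 0 of the 10 genes passed, beside 0.0223% of all genes that were lower and 0.0% that were higher by limma. At an unadjusted p under 0.05 there were 3 (Dntt, Polm and Rag2) beside 6.06% of all genes, and limma-voom called Polm. Only Polm passed in Pax5R31Q/- against Pax5+/-, and the background was 0.35% lower, 0.268% higher and 0.119% lower under the stricter criteria. In Pax5R31Q/- against Pax5-/-, Lig4, Rag1, Rag2 and Xrcc4 were higher, as were 19.9% of all genes, and Poll was lower, as were 14.7%. Rag2 was the 1 that also met the stricter criteria, as did 2.72% of all genes. The call of Xrcc4 was lost without Pax5R31Q/- replicate 1 (adjusted p = 0.0689), without Pax5R31Q/- replicate 2 (0.0838) and without Pax5-/- replicate 1 (0.0585). Median-ratio scaling moved the median log2 fold change of all genes in this comparison from 0.13 to 0.0077 and ended none of the 5 calls, while limma-voom also called Dclre1c. The direction of most calls over all genes turned with the scaling. In this comparison 42.5% of the calls were lower, against 51.3% with median-ratio scaling, 51.8% with quantile normalization and 51.2% with limma-voom. In Pax5-/- against Pax5+/+ 54.8% were lower, against 48.7%, 47.8% and 48.8%. Comparisons with the same Pax5+/+ or Pax5-/- libraries are not independent of each other.

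Other genes that act with this pathway were taken from 4 lists. Of 11 end-joining partners (the Ku subunits, end-processing enzymes and a phosphatase of the kinase), 0 passed in Pax5R31Q/- against Pax5+/+ by limma or limma-voom, and 4 (Xrcc5, Xrcc6, Paxx and Ercc6l2) had an unadjusted p under 0.05 in limma, as did 18.8% of all genes. In Pax5-/- cells 3 were lower and 1 was higher, beside 19.7% and 16.2% of all genes, so the count of calls was near the background. Ppp6c, the catalytic subunit of protein phosphatase 6, had 89.2 and 89.7 TPM in Pax5+/+ and 29.3 and 54.0 TPM in Pax5-/- cells, a log2 fold change of -1.15 at an adjusted p of 0.0089 (limma). Tdp2, which removes topoisomerase from 5′ ends, had 61.0 and 64.9 TPM in Pax5+/+ and 31.7 and 46.8 TPM in Pax5-/- cells (log2 fold change -0.69, adjusted p = 0.0206). Xrcc5, the larger Ku subunit, was the member that rose, from 16.8 and 15.8 TPM to 30.4 and 35.4 TPM (log2 fold change 0.97, adjusted p = 0.0026).

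Of 14 genes of the response to DNA breaks, 1 was lower and 1 higher in Pax5-/- cells, beside 19.7% and 16.2% of all genes. These counts are by limma, and limma-voom also called Atm. In Pax5R31Q/- against Pax5+/+, 0 passed by limma or limma-voom, with 5 at an unadjusted p under 0.05 in limma (18.8% of all genes). H2afx, the histone variant that is phosphorylated around breaks, had 1452 and 1328 TPM in Pax5+/+, 1560 and 1322 TPM in Pax5+/-, 1090 and 949.8 TPM in Pax5R31Q/-, and 291 and 255 TPM in Pax5-/- cells. The fall in Pax5-/- was the largest among these lists, at -2.34 on the log2 scale (adjusted p = 2.8e-05, limma). Trp53bp1, which shields broken ends from resection, rose by 0.45 (adjusted p = 0.0258). Rif1, which acts downstream of it, passed only between Pax5R31Q/- and Pax5-/- cells, with 29.0 and 28.8 TPM against 7.81 and 18.8 TPM (log2 fold change 1.18, adjusted p = 0.0315).

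Among 9 genes of alternative end joining and single-strand break repair, 1 was lower and 1 higher in Pax5R31Q/- cells (2.55% and 1.62% of all genes), and limma-voom also called Parp3. In Pax5-/- cells 6 were lower and 1 was higher by limma (19.7% and 16.2% of all genes), while limma-voom did not call Lig1, a gene lower by limma. Parp1, which binds DNA breaks and adds poly(ADP-ribose), had 626 and 564 TPM in Pax5+/+, 844 and 841 TPM in Pax5+/-, 1081 and 1088 TPM in Pax5R31Q/-, and 3057 and 2863 TPM in Pax5-/- cells. The groups did not overlap and stood in that order from low to high, with log2 fold changes against Pax5+/+ of 0.87 in Pax5R31Q/- (adjusted p = 0.0068, limma) and 2.31 in Pax5-/- (adjusted p = 1.3e-05). Its scaffold partner Xrcc1 went the other way, with 103 and 111 TPM in Pax5+/+, 60.1 and 57.5 TPM in Pax5R31Q/- and 48.1 and 49.2 TPM in Pax5-/- cells. Its log2 fold changes were -0.85 (adjusted p = 0.0070) and -1.12 (adjusted p = 0.0003). Polq, the polymerase of microhomology-mediated joining, had 11.6 and 7.27 TPM in Pax5+/+ and 4.29 and 5.35 TPM in Pax5-/- cells (log2 fold change -0.82, adjusted p = 0.0359). Rbbp8, which starts resection of ends, fell by 0.85 (adjusted p = 0.0051). Parp3, at 29.7 and 58.3 TPM in Pax5+/+, fell by 1.02 in Pax5-/- cells (adjusted p = 0.0380). In Pax5R31Q/- cells it had 19.8 and 16.7 TPM, a log2 fold change of -1.15 that did not pass by limma (adjusted p = 0.0960) and passed by limma-voom.

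**Figure D3:**
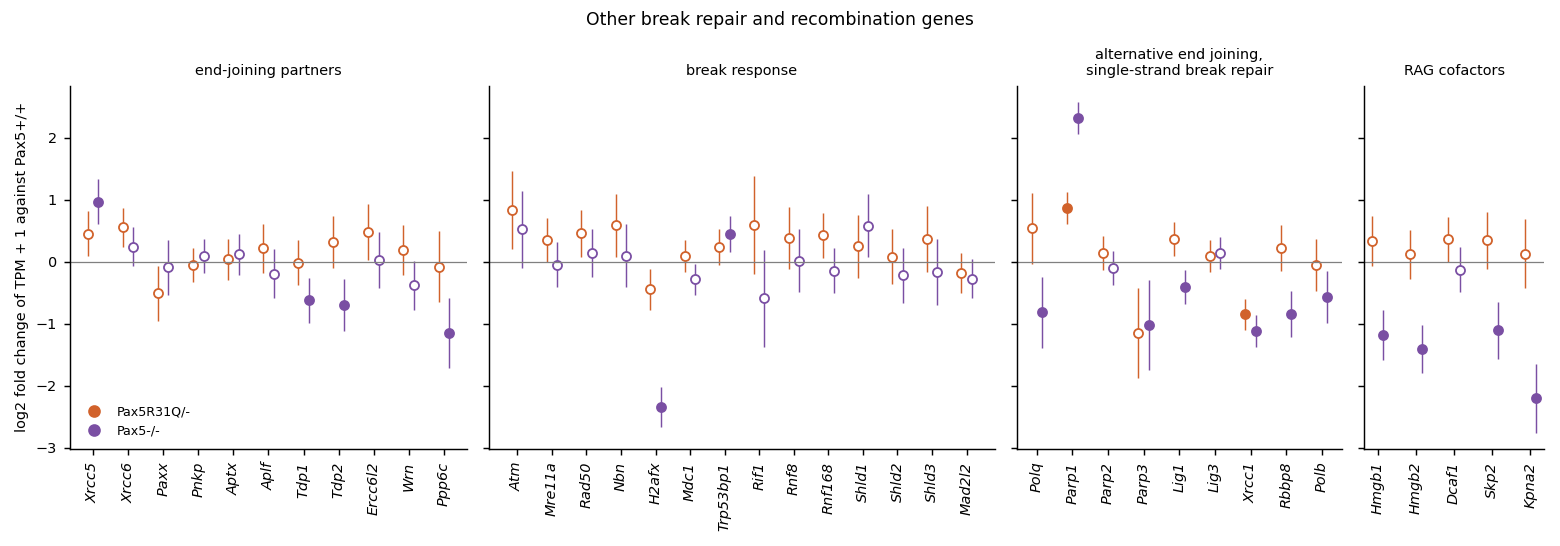
Log2 fold change of TPM + 1 (vertical axis) of 39 other genes of break repair and recombination in Pax5R31Q/- and Pax5-/- against Pax5+/+ pro-B cells, in 4 panels by list, with 95% intervals from limma and filled points for an adjusted p under 0.05. Parp1 and Xrcc1 are the 2 filled in Pax5R31Q/-, and H2afx, Kpna2 and Parp1 lie farthest from 0 in Pax5-/-.

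The 5 cofactors of the Rag proteins comprise 2 DNA-bending proteins that help Rag1 and Rag2 to bind their sites, a nuclear importer of Rag1 and 2 genes of protein turnover. By limma or limma-voom, 0 passed in Pax5R31Q/- against Pax5+/+, and 0 had an unadjusted p under 0.05. In Pax5-/- cells 4 of the 5 were lower, beside 19.7% of all genes. Hmgb1 had 162 and 125 TPM in Pax5+/+ and 54.9 and 70.5 TPM in Pax5-/- cells (log2 fold change -1.18, adjusted p = 0.0017). Hmgb2 fell by 1.41 (adjusted p = 0.0006) and Kpna2, the importer, from 98.9 and 62.1 TPM to 14.1 and 18.7 TPM (adjusted p = 0.0004). Skp2, the ubiquitin ligase subunit that directs Rag2 to degradation at entry into S phase, had 56.8 and 40.4 TPM in Pax5+/+ and 18.6 and 25.1 TPM in Pax5-/- cells, a fall of 1.11 (adjusted p = 0.0043). Rag2 and the gene for its degradation factor were thus both lower in Pax5-/- cells. These falls stood beside the lower G2/M markers in the same libraries given above, and the part of the cell cycle in them was not tested.

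Genes next to the recombination genes were looked at as a measure of the locus. Traf6, the nearest gene beyond Rag1, had means of 49.9 TPM in Pax5+/+, 40.0 TPM in Pax5R31Q/- and 21.5 TPM in Pax5-/- cells, and fell in the latter by 1.19 on the log2 scale (adjusted p = 0.00208, limma). Blnk, which encodes an adaptor of pre-B cell receptor signaling and lies 35053 bp from Dntt, fell in Pax5-/- cells by 1.05 (adjusted p = 0.000984), while Dntt rose. C330026H20Rik, which lies nearer to Dntt, fell there by 1.51 (adjusted p = 0.00103). Pik3ap1, an adaptor of phosphoinositide 3-kinase on the other side of Dntt at 213015 bp, was the neighbour that passed in Pax5R31Q/- against Pax5+/+, with 143 and 115 TPM against 471 and 497 TPM (log2 fold change -1.91, adjusted p = 0.00110), and it fell in Pax5-/- cells too (-2.30, adjusted p = 4.4e-05). Beside Polm, none of the neighbours tested (Pgam2, Dbnl, Pold2 and Ykt6) passed in Pax5R31Q/- against Pax5+/+. The nearest to the threshold was Pgam2, with 7.71 and 3.44 TPM on average and a log2 fold change of -0.97 (adjusted p = 0.0549). The genes whose pattern over the 8 libraries lay nearest to Polm, by the root mean square difference of centered log2(TPM + 1), were Uchl1 and Edaradd (0.249 each) and Cldn4 (0.295). For Rag2 they were Cav2 (0.18), Cd38 (0.183) and Mylip (0.184), for Rag1 Osbpl9 (0.0798), Ssx2ip (0.14) and Wdr76 (0.152), and for Dntt Sgf29 (0.0909), Ifi208 (0.1) and Bace1 (0.106). The neighbours Rag1 and Rag2 were 0.539 apart by this measure, which put Rag1 at rank 765 in the order of likeness to Rag2 and Rag2 at rank 7524 in that to Rag1.

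Pax5 peaks were assigned to a gene when they met its body or the 10 kb on either side, and a peak was common when it met a peak of the other list by at least 1 bp. Each of the 10 genes had a peak in both lists, as did 86.4% and 85.5% of the tested genes that matched the annotation for the wild-type and the R31Q list. The wild-type list had 27 such peaks and the R31Q list 17, out of 41983 and 18821 peaks in the whole lists. Of the 27, 15 (55.6%) were common, and over all genes 73.9% of assigned wild-type peaks were. With 1 ChIP-seq library per genotype there is no test, and the files hold positions only, with no height. A wild-type peak without an R31Q counterpart was found at 7 of the 10 genes and at 32.2% of all genes. Xrcc4 and Prkdc, which span 241 and 205 kb, held 7 of the 12 unique wild-type peaks, and 3 of those 12 lay in sequence at least 50% repeat-masked. Such masked peaks made up 71.7% of the unique wild-type peaks and 2.59% of the common ones in the whole list. Leaving them out was a choice made after seeing the data. Then 15 of 24 peaks (62.5%) of the 10 genes were common, against 67.4% of the whole wild-type list. With them, 37.5% of that list were common. The whole list is not limited to peaks assigned to genes, so 67.4% cannot be set beside the 73.9% above. The share over assigned peaks of all genes without masked ones was not computed.

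**Figure D4:**
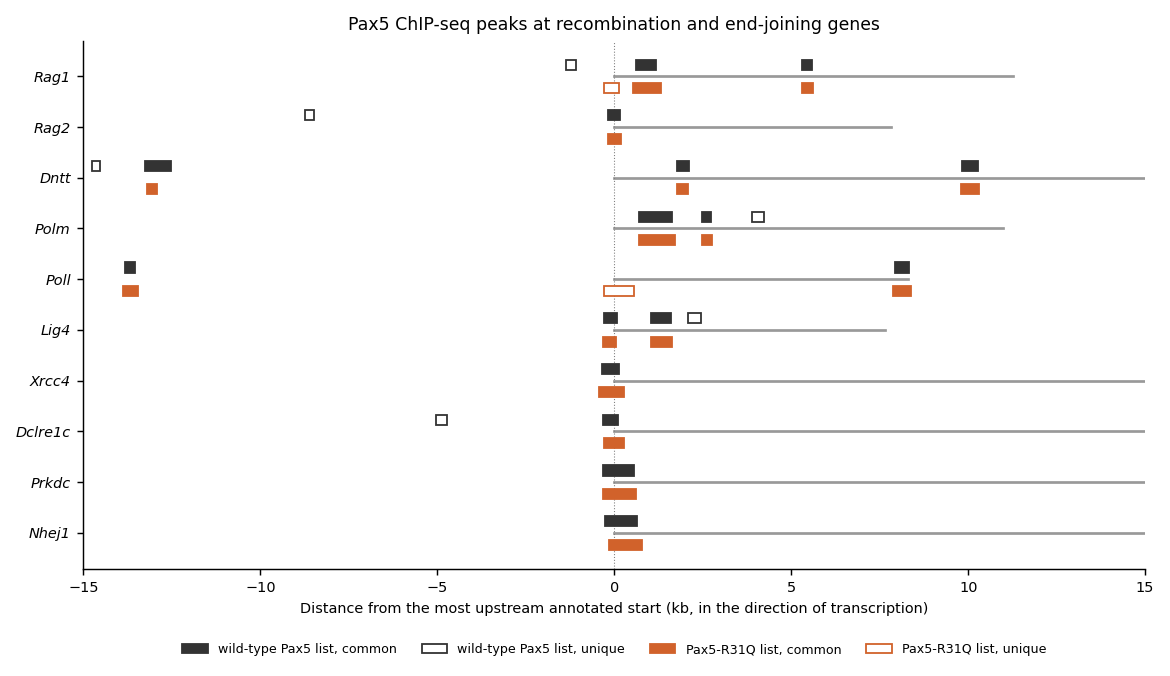
Pax5 ChIP-seq peaks within 15 kb of the most upstream annotated start of each of the 10 genes, with distance in kb along the direction of transcription on the horizontal axis, gray lines for the gene body, black boxes above for the wild-type list and orange boxes below for the R31Q list. Filled boxes are common and open boxes unique peaks; the unique R31Q peaks are at the starts of Rag1 and Poll, and Polm has a unique wild-type peak inside the gene.

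At transcription starts, within 1 kb on either side, 8 of the 10 genes had a wild-type peak (not Dntt and Poll), and each of these 8 had a common peak there. Lig4, which has 2 annotated starts, also had a unique wild-type peak within this distance. An R31Q peak was present at 9, all except Dntt. Among all genes, 68.2% had a wild-type and 73.2% an R31Q peak there, 96.0% of the former were kept, and 7.45% had an R31Q peak without a wild-type one. At Poll the R31Q peak at chr19:45560019-45560853 had its midpoint 128 bp inside the gene. Dntt had 2 common peaks, both in introns, with midpoints 1938 and 10059 bp from its start in the wild-type list. Nhej1 had 1 common peak, at its start.

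Polm kept its peak at the start in both lists, 957 bp wide in the wild-type list (chr11:5837189-5838145) and 1031 bp wide in the R31Q list. Common peaks of the whole lists were also wider with R31Q, with medians of 468 bp in the wild-type and 599 bp in the R31Q list. A second common peak of Polm lay 1585 bp downstream of the nearest of its 4 annotated starts. The unique wild-type peak of Polm was 335 bp wide (chr11:5834613-5834947), with its midpoint in a coding exon 3037 bp from the nearest start. Unique wild-type peaks were also assigned to Rag1 (1), Rag2 (1), Lig4 (1), Xrcc4 (4), Dclre1c (1) and Prkdc (3). The lists hold no heights, so binding at the start of Polm may differ in strength between them, and whether any of these peaks bears on Polm expression was not tested. The middle of the peak is printed here because it is the binding region of Polm that the R31Q list lacks. It reads as follows on the strand of the gene (chr11:5834630-5834929, GRCm38, minus strand), with the best match to the Pax5 consensus motif in capitals.
Polm unique wild-type peak: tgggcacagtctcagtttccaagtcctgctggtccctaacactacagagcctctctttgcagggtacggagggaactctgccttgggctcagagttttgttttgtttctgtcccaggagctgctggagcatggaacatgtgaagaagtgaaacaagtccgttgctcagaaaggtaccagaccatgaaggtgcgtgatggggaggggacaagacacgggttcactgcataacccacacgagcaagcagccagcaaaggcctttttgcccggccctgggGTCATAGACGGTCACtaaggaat

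That match covers 8 of the 14 defined positions of the consensus, and the median over all peaks of either list was 9, so it is no better than in other peaks. The portion of the consensus that the N-terminal part of this domain reads, GCGTGAC, was searched on both strands in the middle 300 bp of each peak. It was in 0 of the peaks assigned to the 10 genes in either list, and in 7.29% of common and 1.68% of unique wild-type peaks overall.

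The closest match to the whole consensus among the peaks of the 10 genes was at Rag1. In the intron of Rag1, a common peak 562 bp wide (chr2:101648350-101648911) held a match at 13 of 14 positions, which 0.305% of common wild-type peaks reach. The substitution was C10T, with the base of the consensus first and positions counted from 1 at its 5′ end. In every stretch printed here with a match, the match lies on the strand opposite to the gene. The capitals are therefore the reverse complement of the match. The common peak at the start of Dclre1c matched at 11 positions, and 9.26% of common wild-type peaks matched at 11 or more. A common peak in the coding exon of Rag1 and a unique wild-type peak in an intron of Prkdc (chr16:15835017-15835286) also matched at 11. The intron peak of Rag1 and the start of Dclre1c are printed on the strand of the gene, with the match in capitals, to show a close and a partial match beside the peak of Polm.
Rag1 intron (chr2:101648547-101648681, minus strand): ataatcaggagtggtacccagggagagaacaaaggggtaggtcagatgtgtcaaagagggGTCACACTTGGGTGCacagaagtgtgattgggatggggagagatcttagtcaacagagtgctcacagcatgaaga
Dclre1c upstream (chr2:3423911-3424060, plus strand): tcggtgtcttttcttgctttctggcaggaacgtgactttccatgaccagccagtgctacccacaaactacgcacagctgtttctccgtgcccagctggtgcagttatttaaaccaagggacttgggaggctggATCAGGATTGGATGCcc

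The Rag locus held a difference in each direction. The wild-type list had a peak 1228 bp upstream of Rag1 (chr2:101650627-101650893) and another 8614 bp upstream of Rag2 (chr2:101615983-101616213) that the R31Q list lacks. The R31Q list had a peak across the start of Rag1 (chr2:101649406-101649811), with its midpoint 76 bp upstream, that the wild-type list lacks. The peak at the start of Rag2 was common, 337 bp wide in the wild-type and 360 bp in the R31Q list, and matched the consensus at 9 positions. The wild-type ChIP-seq cells were Rag2(-/-), so absence of a peak inside Rag2 itself cannot be told apart from absence of the sequence. The Rag2 genotype of the Pax5R31Q/- cells is unclear. The peak differences at this locus thus cannot be told apart from a difference in Rag2 genotype. The 150 bp before each start are printed on the strand of the gene, since the 2 promoters differ in which list has a peak there. The match of the Rag2 peak is in capitals, and that of the Rag1 peak lies outside the stretch shown.
Rag1 upstream (chr2:101649533-101649682, minus strand): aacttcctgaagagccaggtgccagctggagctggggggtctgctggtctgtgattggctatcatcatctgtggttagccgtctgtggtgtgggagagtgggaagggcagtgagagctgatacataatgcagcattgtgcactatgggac
Rag2 upstream (chr2:101624562-101624711, plus strand): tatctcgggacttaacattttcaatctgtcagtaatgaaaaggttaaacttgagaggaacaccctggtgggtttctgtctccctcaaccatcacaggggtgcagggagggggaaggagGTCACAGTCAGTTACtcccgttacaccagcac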

How the data were processed

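RNA-seq values of 8 libraries and Pax5 peaks of 2 ChIP-seq libraries were used as deposited. The authors filtered ribosomal reads, used STAR to align the rest to GRCm38/mm10, assigned reads with a unique position to RefSeq genes and deposited the result as TPM. The peaks (start and end only; MACS, per the methods of the study) are from 1 library per genotype. Tests used limma (version 3.58.1, R version 4.3.3) on log2(TPM + 1), with eBayes, a trend of the variance and all 4 genotypes in the fit, in place of the count test of the study. Genes with 1 TPM or more in 1 or more libraries were kept, and Benjamini-Hochberg adjustment ran over these 13436 genes. Whole reads could be worked out from the TPM values of 18206 of 18206 genes, each within 0.001 read, and tested with limma-voom as an alternative. The consensus of the Pax5 motif was that of the study. The method was tested on data simulated for Pax5-/- against Pax5+/+ only. It recovered 69% of 2-fold changes with 8 false calls and 99.5% of 4-fold changes with 21 false calls. Gene positions came from RefSeq (GRCm38.p6), which matched 13100 of the tested genes by symbol. Named genes are the 10 genes described, list genes with an adjusted p under 0.05 and over 2-fold in a comparison or otherwise the 3 with the largest change, the nearest neighbours of Rag1, Rag2, Dntt and Polm, and the genes most like them. Xrcc5, Xrcc6, Paxx, Ercc6l2 and Trp53bp1 make up small counts and were named after their values were seen. The genes and lists were chosen with earlier results of these data known. Read coverage was not analysed here. Some marker genes are not reported here.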

Additional observations from a re-analysis of the deposited data

How the results depend on the processing

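No paired analysis was possible because the labels give no replicate numbers, and those used here follow the order of the samples and only name them. The number of the 10 genes that passed in Pax5R31Q/- against Pax5+/+ (1, Polm) became 2 with a pseudocount of 0.1 (Dntt and Polm) and 2 with limma-voom on recovered reads (Polm and Prkdc). In Pax5+/- against Pax5+/+ it went from 0 to 1 with limma-voom (Polm). In Pax5-/- against Pax5+/+ it went from 8 to 4 with only the 2 genotypes in the fit (Lig4, Poll, Polm and Rag2), a fit with fewer libraries to estimate the spread, and ranged from 5 to 8 when 1 library was left out, with 5 (Dclre1c, Lig4, Poll, Polm and Rag2) without Pax5+/+ replicate 1. In Pax5R31Q/- against Pax5+/- it ranged from 0 to 1 when 1 library was left out. A lone library was then assumed to vary like the other groups. Windows of 50 kb around the gene body gave sums over the 10 genes of 56 wild-type and 41 R31Q peaks, in which peaks near both Rag1 and Rag2 count for each.

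Differences that changed sign were all short of the threshold in the analysis reported. With median-ratio scaling, the log2 fold changes against Pax5+/+ in Pax5R31Q/- were -0.016 for Rag2 and -0.0079 for Nhej1, and Dntt was at -0.070 in Pax5R31Q/- against Pax5-/-. With limma-voom they were -0.017, -0.014 and -0.076, and quantile normalization gave -0.029 for Nhej1. When 1 library was left out, Pax5R31Q/- against Pax5+/+ ranged from -0.15 to 0.12 for Lig4, from -0.24 to 0.16 for Xrcc4 and from -0.13 to 0.19 for Nhej1. Pax5+/- against Pax5+/+ ranged from -0.41 to 0.24 for Rag1, from -0.23 to 0.040 for Lig4, from -0.062 to 0.26 for Nhej1 and from -0.44 to 0.029 for Xrcc4. Nhej1 ranged from -0.039 to 0.28 in Pax5-/- against Pax5+/+, and Dntt from -0.044 to 0.17 in Pax5R31Q/- against Pax5-/-. Pax5R31Q/- against Pax5+/- ranged from -0.070 to 0.39 for Xrcc4, from -0.026 to 0.18 for Lig4, from -0.14 to 0.067 for Poll and from -0.15 to 0.0036 for Nhej1. Of the alternative values of single genes, 597 kept their direction and side of the threshold, 18 lost and 11 gained a call, and 24 changed sign. The cause was not tested.

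Over all genes, 560 passed in Pax5R31Q/- against Pax5+/+, 297 with only the 2 genotypes, 860 with limma-voom and 86 to 585 when 1 library was left out. In Pax5+/- against Pax5+/+ the number was 3 and ranged from 0 to 35, and all 3 were lower, against 77.8% of the calls with median-ratio scaling. The numbers were 4829 in Pax5-/- against Pax5+/+ (2329 with only the 2 genotypes) and 4655 in Pax5R31Q/- against Pax5-/- (2836, and 1985 to 6536 when 1 library was left out). In Pax5R31Q/- against Pax5+/- they were 83, 37 with no filter, 193 with limma-voom and 0 to 8 when 1 library was left out. The depth leaves 37 and 38 reads on Polm in Pax5-/- and 76 and 80 in Pax5R31Q/- libraries. Peak lists with no heights cannot show partial loss of binding.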
